A study of Rattus norvegicus with 11 samples.

Results

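Of 9 genes of sugar transport and glucose phosphate metabolism, 8 were measured among 11427 probe sets, each for 1 gene, in rat small intestine. They were found by matching the Entrez gene number of each probe set to the gene's symbol. They are the sugar carriers Slc2a1, Slc2a2 and Slc2a5, the sugar phosphate carriers Slc37a2 and Slc37a4, and the enzymes Khk, G6pc1 and Fbp1. The ninth, Slc5a1, the sodium-coupled glucose carrier of the brush border, had no probe set matched here and was not analysed.

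There was 1 Affymetrix array per sample, 11 in all. Rats with brain death and vagus nerve stimulation gave 4 arrays (BD_VNS, replicates 1 to 4). Brain-dead rats without stimulation gave 4 (BD, replicates 1, 3, 4 and 6), and rats that were anaesthetised and ventilated without brain death gave 3 (NBD, replicates 1, 3 and 4). Tissue was taken 6 hours after brain death, or after 6 hours of ventilation in NBD. The labels call all rats transgenic without naming a gene, and give no strain, sex or age. For NBD, the source field names brain-dead animals too, which conflicts with the titles, and samples were grouped by title. Whether the arrays stand for separate animals is not stated, so p values measure only the spread between these samples, which may be technical.

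Absorptive cells of the small intestine take up glucose and galactose with sodium through Slc5a1 and fructose through Slc2a5, both at the brush border. Hexoses leave these cells for the blood mainly through Slc2a2 in the basolateral membrane, and Slc2a1 is the carrier of basal glucose uptake in most cells. Khk, ketohexokinase, phosphorylates fructose as the first step of its breakdown. Fbp1, fructose-1,6-bisphosphatase, and G6pc1, the catalytic subunit of glucose-6-phosphatase, act late in glucose production, and Slc37a4 carries glucose 6-phosphate into the endoplasmic reticulum, where G6pc1 acts. Slc37a2 is a related exchanger of sugar phosphate and phosphate in the same membrane.

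Values are log2 levels as the authors normalized them, and changes are differences of log2 levels. Levels of different probe sets are not compared with each other, except those of markers with the median probe set. Mean log2 levels over all probe sets ran from 8.169 to 8.178 per array, and precision is limited by how few arrays there are. All 16 measured enterocyte markers lay above the median probe set in every array, as did all 7 of smooth muscle and all 8 of fibroblasts and matrix. All 7 hepatocyte markers lay below it in every array. Arrays BD 4 and BD 6 stood apart in pancreatic transcripts, with a mean level of 14.08 and 13.71 over 11 acinar markers, against 7.04 to 8.03 in the other 9 arrays. Among those 9, BD_VNS 3 and BD_VNS 4 were highest, at 8.03 and 7.85, and the rest lay at 7.04 to 7.16. The mean over 6 markers of the endocrine pancreas, some cells of which use Slc2a2, was 9.71 in BD 4 and 8.87 in BD 6. It was 7.46 to 8.002 in the other 9 arrays, highest in BD_VNS 4. Calls among the 8 genes and in the other lists of sugar metabolism that were lost without BD 4 and BD 6 are given with and without them. Calls of cell type markers are given with all arrays only. In bulk tissue, fewer cells of a type and less RNA per cell cannot be told apart.

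The comparison of BD with NBD asks how brain death altered these genes. The sugar phosphate carriers Slc37a2 and Slc37a4 fell, and so did the hexose exit carrier Slc2a2 and the fructose kinase Khk. Slc37a2 was 3.16-fold lower in BD, while the falls of Slc37a4, Khk and Slc2a2 were 1.33-fold, 1.32-fold and 1.20-fold. Of the 8 genes, 4 passed an adjusted p under 0.05 (limma, Benjamini-Hochberg over all probe sets), all 4 lower in BD. Among all probe sets 5.73% passed, 3.63% as lower and 2.1% as higher. The median change of the 8 genes was -0.26, against -0.01 over all probe sets.

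**Figure D1:**
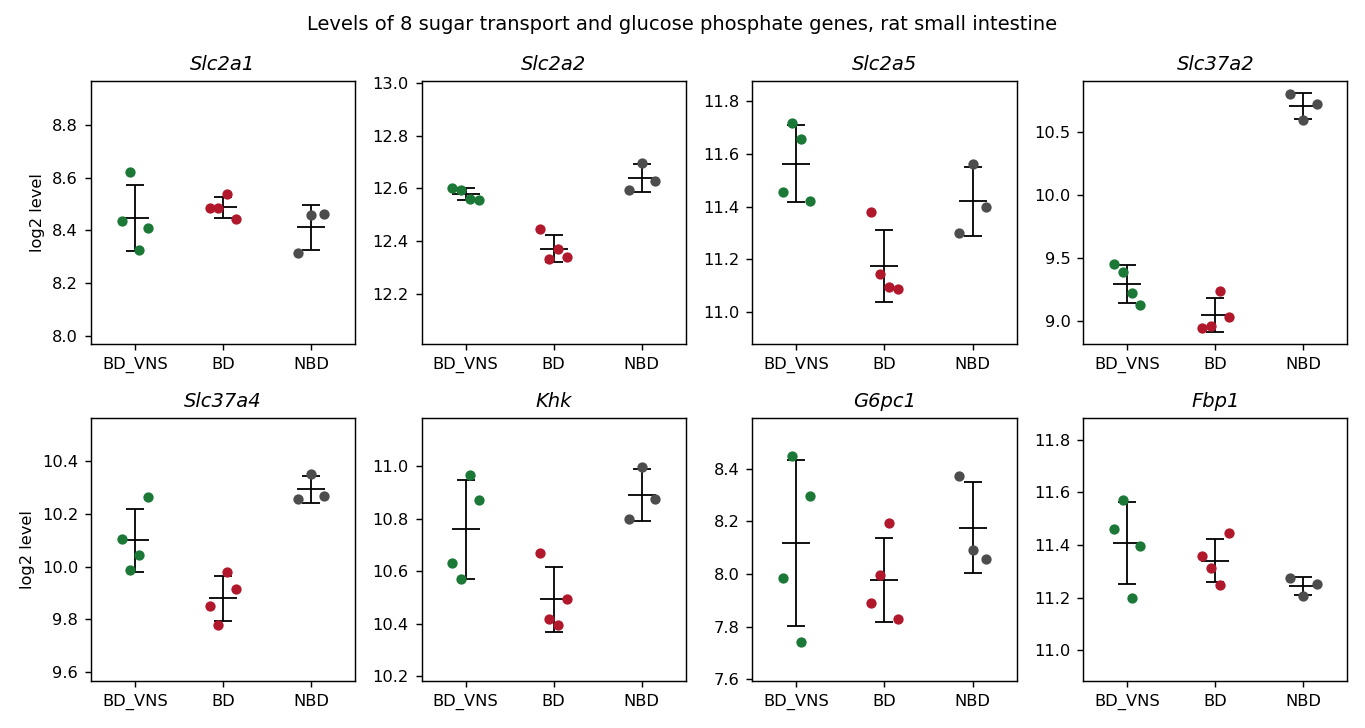
Log2 level of each of the 8 genes (vertical axis, 1 panel per gene, each axis at least 1 log2 unit high and not starting at 0) in the BD_VNS (4), BD (4) and NBD (3) arrays. Points are arrays, and the black bars are the mean and SD. For Slc37a2 the BD_VNS and BD arrays lie between 8.95 and 9.45 and the NBD arrays between 10.59 and 10.80.

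Slc37a2 (Entrez Gene 500973) had log2 levels of 8.95, 8.96, 9.24 and 9.04 in BD 1, 3, 4 and 6, against 10.80, 10.59 and 10.72 in NBD 1, 3 and 4. Every BD array lay more than 1 log2 unit below every NBD array. The mean was 9.05 ± 0.13 in BD (SD, n = 4) and 10.71 ± 0.10 in NBD (SD, n = 3), a change of -1.66 ± 0.09 (SE; limma adjusted p = 1.25e-06). It was the fourth most negative change of all 11427 probe sets. The fall passed in all 23 alternative fits, with changes of -1.77 to -1.44.

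Slc37a4 (Entrez Gene 29573), the glucose 6-phosphate carrier, had levels of 9.85, 9.78, 9.98 and 9.92 in BD 1, 3, 4 and 6, against 10.26, 10.35 and 10.27 in NBD 1, 3 and 4. The groups did not overlap, and the change was -0.41 ± 0.07 (SE; limma adjusted p = 0.0038). The 95% interval of this change, -0.56 to -0.27, and that of Slc37a2, -1.86 to -1.46, do not meet. Slc37a1, another sugar phosphate carrier of this family, is not among the 8 genes and is named after its values were seen. It averaged 9.19 in BD and 8.95 in NBD, with all BD arrays above all NBD arrays, and did not pass (0.24 ± 0.08, SE; limma adjusted p = 0.0968).

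Slc2a2 (Entrez Gene 25351) had levels of 12.45, 12.33, 12.37 and 12.34 in BD 1, 3, 4 and 6, against 12.59, 12.70 and 12.63 in NBD 1, 3 and 4. All BD arrays were below all NBD arrays, and the 2 BD arrays with pancreatic transcripts lay between the other 2. The change was -0.27 ± 0.04 (SE; limma adjusted p = 0.00311), and without BD 4 and BD 6 it was -0.25 (adjusted p = 0.0385).

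Khk (Entrez Gene 25659) had levels of 10.67, 10.42, 10.39 and 10.49 in BD 1, 3, 4 and 6, against 10.80, 10.996 and 10.88 in NBD 1, 3 and 4. Again the groups did not overlap, with BD 1 and NBD 1 closest. The change was -0.40 ± 0.10 (SE; limma adjusted p = 0.0367). This call was the least stable of the 4: it was lost without BD 4 and BD 6 (-0.35, adjusted p = 0.182). It was also lost when BD 3, BD 4, BD 6, NBD 1, NBD 3 or NBD 4 alone was left out, with changes of -0.44 to -0.34 and adjusted p of 0.0677 to 0.167.

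The other 4 genes did not pass in BD against NBD. Slc2a5 (Entrez Gene 65197), the fructose carrier, averaged 11.17 ± 0.14 in BD (SD, n = 4) and 11.42 ± 0.13 in NBD (SD, n = 3), a change of -0.25 (95% interval -0.45 to -0.04; adjusted p = 0.171). One BD array, BD 1 at 11.38, lay within the NBD range of 11.30 to 11.56, and the other 3 lay at 11.09 to 11.14. Slc2a1 (Entrez Gene 24778) ran from 8.44 to 8.54 in BD and from 8.31 to 8.46 in NBD, with a change of 0.08 (-0.07 to 0.22; adjusted p = 0.594). Its interval and those of both glucose production enzymes include 0. G6pc1 (Entrez Gene 25634) ran from 7.83 to 8.19 in BD and from 8.06 to 8.37 in NBD (-0.20, interval -0.53 to 0.13; adjusted p = 0.532). Fbp1 (Entrez Gene 24362) ran from 11.25 to 11.45 in BD and from 11.21 to 11.27 in NBD (0.10, interval -0.07 to 0.26; adjusted p = 0.54). These p values do not show that the 4 genes were alike in both groups. G6pc1 had the widest interval of the 8.

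In all, 4 of the 8 genes had BD arrays all below the NBD arrays, as 11.4% of all probe sets did. No gene of the 8 had its BD arrays all above, as 9.03% of all probe sets did, and in either direction 20.4% did.

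Markers of the absorptive epithelium were lower in BD on average. The mean of 16 enterocyte markers was 11.88 ± 0.10 in BD (SD, n = 4) and 12.10 ± 0.05 in NBD (SD, n = 3), a difference of -0.22, and 5 of the 16 passed, all as lower. Of the 16 changes 13 were negative and 3 positive, among them Dpp4 at 0.07 (adjusted p = 0.725). The enterocyte mean was 12.01, 11.86, 11.76 and 11.86 in BD 1, 3, 4 and 6, against 12.07, 12.15 and 12.07 in NBD 1, 3 and 4. The lowest was that of BD 4, an array with pancreatic transcripts. Markers of smooth muscle were 0.36 higher in BD than in NBD on average (2 of 7 passed as higher), and those of fibroblasts and matrix 0.28 higher (3 of 8 passed as higher). Macrophage markers were 0.03 higher (0 of 7 passed). When the enterocyte marker mean of each array was subtracted from every probe set, which raises every BD change by 0.22, Slc37a2 still passed (-1.44, adjusted p = 3.72e-06). The changes of Slc2a2 (-0.05, adjusted p = 0.486), Khk (-0.17, adjusted p = 0.127) and Slc37a4 (-0.19, adjusted p = 0.0976) then did not pass. On the same scale Slc2a1 (0.30, adjusted p = 0.0124) and Fbp1 (0.32, adjusted p = 0.0108) passed as higher in BD. So did most of the probe sets called on that scale, which were 6503 of all 11427. With the enterocyte mean as a covariate in place of subtraction, Slc37a2 (-1.77, adjusted p = 0.000447) and Slc37a4 (-0.55, adjusted p = 0.0407) passed and the other 6 genes did not. The part of cell composition in these changes was not tested further.

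**Figure D2:**
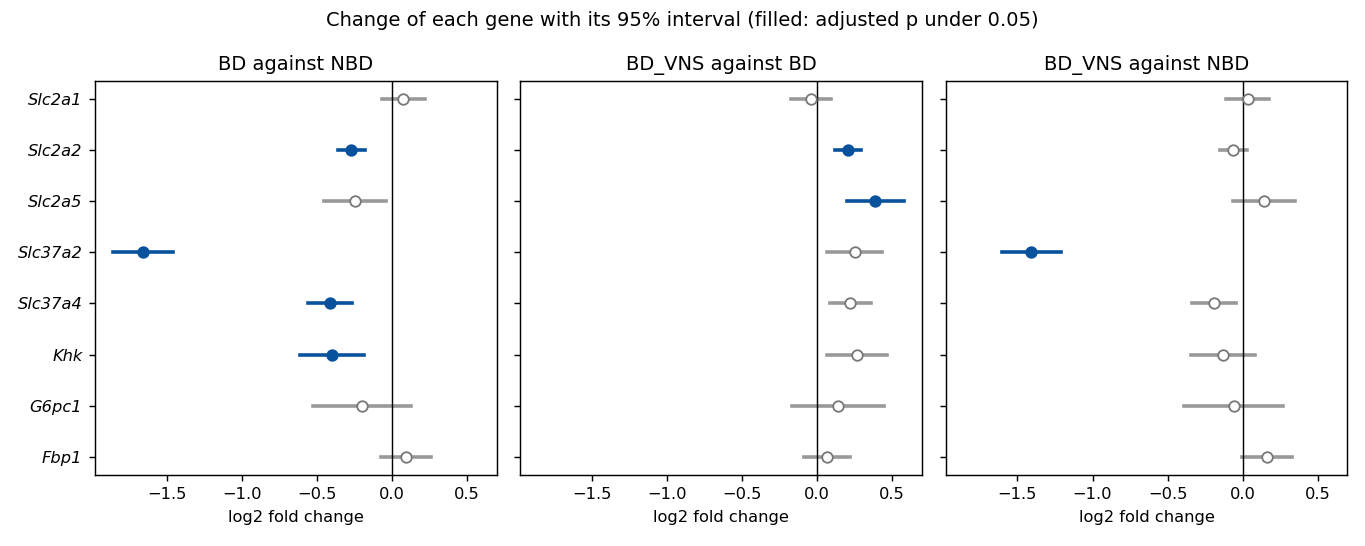
Log2 fold change (horizontal axis) of each of the 8 genes (rows) in 3 comparisons, with the 95% interval as a line. Filled points passed an adjusted p under 0.05. In the first panel 4 genes are filled, all left of 0, in the second Slc2a5 and Slc2a2, right of 0, and in the third Slc37a2 alone.

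Promoters of 3 of the genes that fell are shown, as RefSeq gives them on assembly GRCr8, because these genes fell together in BD, and Slc37a4, which fell too, is left out because it has more than 1 annotated start. Each runs from 250 bases before the annotated start to 50 bases after it, written 5′ to 3′ on the strand of the gene, and capitals mark the matches named below. Slc37a2 lies at chr8:45160140-45160439 (minus strand), Slc2a2 at chr2:113540120-113540419 (plus strand) and Khk at chr6:31175432-31175731 (minus strand).
Slc37a2: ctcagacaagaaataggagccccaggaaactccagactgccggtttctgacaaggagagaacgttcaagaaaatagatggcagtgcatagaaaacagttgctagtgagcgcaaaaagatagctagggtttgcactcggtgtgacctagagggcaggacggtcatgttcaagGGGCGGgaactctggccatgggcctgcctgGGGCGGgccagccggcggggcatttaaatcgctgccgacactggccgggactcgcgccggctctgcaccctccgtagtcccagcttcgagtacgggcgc
Slc2a2: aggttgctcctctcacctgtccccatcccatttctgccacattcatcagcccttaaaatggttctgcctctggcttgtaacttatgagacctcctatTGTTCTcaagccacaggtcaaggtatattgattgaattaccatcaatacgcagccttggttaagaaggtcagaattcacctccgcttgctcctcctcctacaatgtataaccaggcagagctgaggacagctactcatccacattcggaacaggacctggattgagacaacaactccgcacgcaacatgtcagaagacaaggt
Khk: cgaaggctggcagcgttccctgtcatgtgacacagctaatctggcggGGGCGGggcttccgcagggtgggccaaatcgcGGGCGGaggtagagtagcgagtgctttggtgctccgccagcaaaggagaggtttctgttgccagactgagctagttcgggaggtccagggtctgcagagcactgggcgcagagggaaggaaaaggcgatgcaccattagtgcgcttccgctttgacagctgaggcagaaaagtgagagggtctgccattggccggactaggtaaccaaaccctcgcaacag
The capitals in the Slc37a2 and Khk promoters are GC boxes (GGGCGG), which start 79 and 49 bases before the start of Slc37a2 and 203 and 171 bases before that of Khk. Slc2a2 has none of these, and its capitals are a partial site of the glucocorticoid receptor (AGAACA, here on the opposite strand) 153 bases before the start.

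All 9 listed genes, Slc5a1 included, had a promoter in the RefSeq table, and Slc37a4 had 2. Each was searched on both strands for 7 motifs. Of 33469 promoters of this length, 33.1% hold a GC box, 20.7% the partial receptor site, 14.2% a TATA box (TATAAA), 7.45% a partial site of HNF1 (GTTAAT) and 6.42% an E box (CACGTG). The full palindromic receptor site, which holds the partial site on both strands, occurs in 0.0149% and the full HNF1 palindrome, which holds its partial site, in 0.00299%, and neither is in a promoter of the 9 genes. Slc2a5 has no match to any of the 7 motifs. Both windows of Slc37a4, and those of Slc2a1 and Fbp1, hold a GC box, and G6pc1 has a TATA box 41 bases and a partial HNF1 site 234 bases before its start. Slc2a1 also has a TATA box 24 bases after its start, and Slc5a1 an E box 200 bases before its start. These matches describe the letters and do not show binding.

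The comparison of BD_VNS with BD asks how vagus nerve stimulation altered these genes in brain-dead rats. The fructose carrier Slc2a5 and the hexose exit carrier Slc2a2 rose, and were 1.31-fold and 1.15-fold higher in BD_VNS. Of the 8 genes these 2 passed, and none passed as lower (limma, adjusted p under 0.05). Among all probe sets 5.56% passed, 1.9% as higher and 3.66% as lower. Changes of 7 of the 8 genes were positive, with a median of 0.21, against 0.03 over all probe sets. The comparison uses the same BD arrays as that of BD with NBD, so opposite signs in these comparisons are not independent.

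Slc2a5 had levels of 11.45, 11.72, 11.66 and 11.42 in BD_VNS 1, 2, 3 and 4, against 11.38, 11.14, 11.09 and 11.09 in BD 1, 3, 4 and 6. All BD_VNS arrays were above all BD arrays, with BD_VNS 4 and BD 1 closest. The change was 0.39 ± 0.09 (SE; limma adjusted p = 0.0255), with an interval of 0.20 to 0.58. It kept its sign in all 23 alternative fits, and the call was lost without BD_VNS 3, BD 3, BD 4 or BD 6 (adjusted p = 0.0692, 0.0596, 0.06 and 0.0774). Without both BD 4 and BD 6 the change was 0.30 (adjusted p = 0.175).

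Slc2a2 had levels of 12.60, 12.60, 12.56 and 12.56 in BD_VNS 1, 2, 3 and 4, against 12.45, 12.33, 12.37 and 12.34 in BD 1, 3, 4 and 6. The BD_VNS arrays spanned 0.04 log2 units and did not overlap the BD arrays. The change was 0.21 ± 0.04 (SE; limma adjusted p = 0.014), and it passed in each of the 11 fits that left out 1 array. Without both BD 4 and BD 6 it was 0.19 (adjusted p = 0.0978).

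Slc37a2, Slc37a4 and Khk were higher on average in BD_VNS but did not pass. Slc37a1 averaged 9.10 in BD_VNS and 9.19 in BD (-0.09; limma adjusted p = 0.483). Slc37a4 had levels of 10.10, 9.99, 10.05 and 10.26 in BD_VNS 1, 2, 3 and 4, all above the BD arrays (0.22, interval 0.08 to 0.36; adjusted p = 0.0633). It passed without BD_VNS 2 (0.26, adjusted p = 0.0266) and after centring every array on its own median, and it was the third of 3 genes whose BD_VNS arrays all lay above the BD arrays. Among all probe sets 7.31% showed this, 5.81% had all BD_VNS arrays below, and 13.1% did either. Slc37a2 had levels of 9.45, 9.39, 9.22 and 9.13 in BD_VNS 1, 2, 3 and 4, which overlap those of BD because BD 4 was at 9.24 (0.25, interval 0.07 to 0.43; adjusted p = 0.101). Khk had levels of 10.63, 10.57, 10.97 and 10.87 in BD_VNS 1, 2, 3 and 4 (0.27, interval 0.07 to 0.46; adjusted p = 0.107). BD 1, at 10.67, lay above the lower 2 of these BD_VNS arrays. Khk passed without BD_VNS 2 (0.33, adjusted p = 0.041).

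Slc2a1, G6pc1 and Fbp1 did not pass in BD_VNS against BD, and their groups overlapped. Slc2a1 ran from 8.33 to 8.62 in BD_VNS (-0.04, interval -0.17 to 0.09; adjusted p = 0.74). G6pc1 ran from 7.74 to 8.45 in BD_VNS, the widest spread of the 8 genes in any group (0.14, interval -0.16 to 0.45; adjusted p = 0.594). Fbp1 ran from 11.20 to 11.57 in BD_VNS (0.07, interval -0.09 to 0.22; adjusted p = 0.629).

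Enterocyte markers averaged 12.04 ± 0.06 in BD_VNS (SD, n = 4) and 11.88 ± 0.10 in BD (SD, n = 4), and 4 of 16 passed as higher. Markers of fibroblasts and matrix averaged 0.74 lower in BD_VNS than in BD (6 of 8 passed as lower) and macrophage markers 0.71 lower (6 of 7). The array ranges did not overlap for either list, at 9.50 to 10.05 in BD_VNS and 10.39 to 10.67 in BD for matrix, and at 7.82 to 8.46 in BD_VNS and 8.74 to 8.88 in BD for macrophages. With the enterocyte mean subtracted from each array, Slc2a5 still passed (0.23, adjusted p = 0.0383) and Slc2a2 did not (0.05, adjusted p = 0.525). With that mean as a covariate neither passed (Slc2a5 0.14, adjusted p = 0.439; Slc2a2 0.14, adjusted p = 0.209). As a sign of RNA quality, the log2 difference between 3′ and 5′ control probe sets, averaged over Gapdh and beta-actin, was 0.98 ± 0.16 in BD_VNS, 0.84 ± 0.05 in BD and 0.77 ± 0.09 in NBD (SD, n = 4, 4 and 3). With this difference as a covariate as many of the 8 genes passed as without it, which was 4 between BD and NBD, 2 between BD_VNS and BD and 1 between BD_VNS and NBD.

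**Figure D3:**
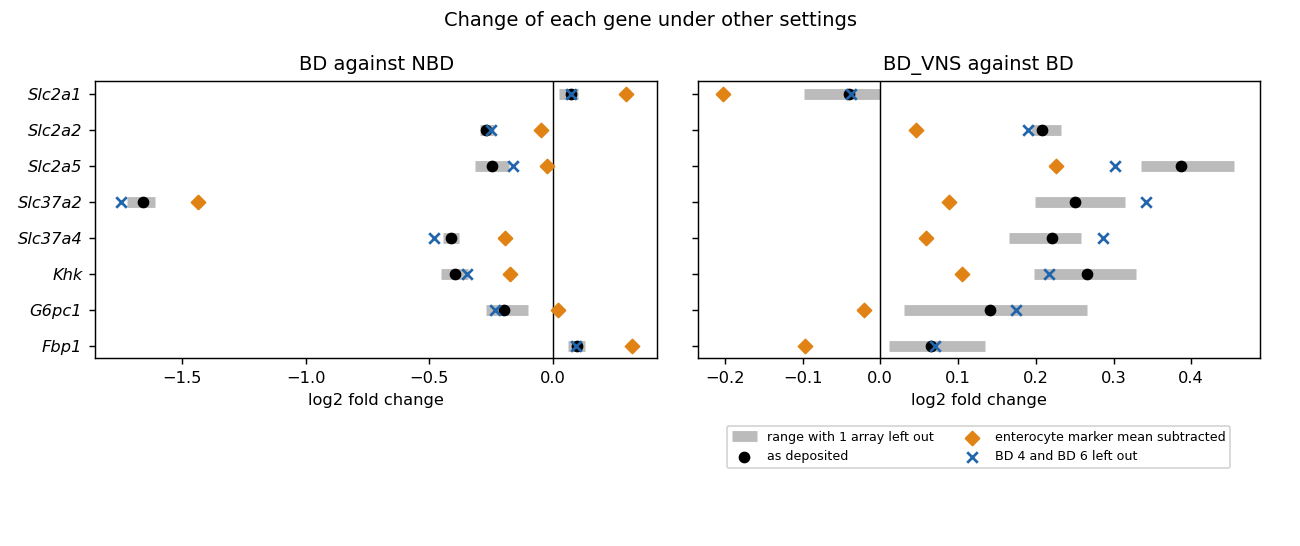
Log2 fold change (horizontal axis, with a different span in each panel) of the 8 genes in BD against NBD and BD_VNS against BD under other settings. Black points are the values as deposited, grey bars the range over 11 fits with 1 array left out, orange diamonds the values with the enterocyte marker mean subtracted and blue crosses those without BD 4 and BD 6. For Slc37a2 in BD against NBD all of these lie between -1.75 and -1.44, and for Slc2a2 the diamond lies at -0.05.

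The comparison of BD_VNS with NBD asks which genes differed from ventilated rats after stimulation. Of the 8 genes only Slc37a2 passed, as lower (limma, adjusted p under 0.05), and among all probe sets 8.44% passed, 4.8% as lower and 3.64% as higher. The mean of Slc37a2 was 9.30 ± 0.15 in BD_VNS (SD, n = 4) and 10.71 ± 0.10 in NBD (SD, n = 3). That is a 2.65-fold lower level (-1.41 ± 0.09, SE; limma adjusted p = 6.59e-06), and the fifth most negative change of all probe sets. It passed in all 23 alternative fits, with changes of -1.46 to -1.35. Its BD_VNS arrays lay wholly below the NBD arrays, as those of 10% of all probe sets did (10.9% lay wholly above, and 20.9% did either), and no other gene of the 8 had groups that did not overlap. Cell type markers differed too. The mean change was -0.67 for macrophage markers (6 of 7 passed as lower) and -0.46 for fibroblast and matrix markers (3 of 8 as lower). It was 0.36 for smooth muscle markers (2 of 7 as higher) and -0.06 for enterocyte markers (1 of 16 as lower). The part of cell composition was not tested.

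For the genes that moved in the other comparisons, the intervals between BD_VNS and NBD were narrow for Slc2a2 and wider for the rest. Slc2a2 averaged 12.58 ± 0.02 in BD_VNS (SD, n = 4) and 12.64 ± 0.05 in NBD (SD, n = 3), with a change of -0.06 (interval -0.15 to 0.03; adjusted p = 0.449). Slc37a4 averaged 10.10 ± 0.12 in BD_VNS and 10.29 ± 0.05 in NBD (-0.19, interval -0.34 to -0.05; adjusted p = 0.104), and it passed as lower without BD_VNS 4 (-0.25, adjusted p = 0.0369). Slc2a5 was on average above its NBD level in BD_VNS, by 0.14 (interval -0.06 to 0.35; adjusted p = 0.423). Khk changed by -0.13 (interval -0.34 to 0.08; adjusted p = 0.494), Slc2a1 by 0.04 (adjusted p = 0.824), G6pc1 by -0.06 (adjusted p = 0.882) and Fbp1 by 0.16 (interval -0.003 to 0.33; adjusted p = 0.227). Fbp1 passed without BD_VNS 3 (0.23, adjusted p = 0.0482).

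The order of the group means thus differed among the genes. For Slc37a2, Slc37a4, Khk, Slc2a2 and G6pc1 it was BD lowest, BD_VNS between and NBD highest. Neighbours in that order were apart by an adjusted p under 0.05 for Slc37a2 (BD_VNS and NBD) and for Slc2a2 (BD_VNS and BD), and not for the other neighbours of these 5 genes. For Slc2a5 the order was BD, NBD and BD_VNS, and neither pair of neighbours passed. For Fbp1 it was NBD, BD and BD_VNS and for Slc2a1 NBD, BD_VNS and BD, with no pair that passed.

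Across the 11 arrays, which share the group differences, the levels of Slc2a2 went with those of Slc37a4 (Pearson r = 0.83), Khk (0.80), Slc2a5 (0.79) and Slc37a2 (0.70). The correlation of Slc37a2 with Slc2a5 was 0.21 and that of Slc37a2 with Fbp1 was -0.43. Over all named probe sets, the 3 most like Slc37a2 were Fkbp5 (r = 0.98), Cyp27a1 (0.98) and Cdc37l1 (0.97). Among those most like Slc2a2 were Surf4 (0.95) and the fatty acid transport protein Slc27a4 (0.94), and those most like Slc2a5 were Psmd2 (0.95), Sephs1 (0.92) and Fhip2a (0.92). For Slc37a4 they were Rabl6 (0.94), Kank3 (0.92) and C8g (0.91), and for Khk Zfp143 (0.94), the zinc carrier Slc30a5 (0.93) and Gtf2h1 (0.92). These values are a description of 11 arrays, chosen as the highest over all named probe sets.

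Other sugar carriers showed a few changes. Of 11 measured, 2 fell in BD against NBD and 2 rose in BD_VNS against BD, and these were Slc2a9 and Slc5a11 in both. Slc2a9, a carrier of urate and hexoses, had levels of 8.16, 7.92, 7.99 and 8.02 in BD 1, 3, 4 and 6, against 8.61, 8.60 and 8.59 in NBD 1, 3 and 4 (-0.57 ± 0.07, SE; limma adjusted p = 0.000606). In BD_VNS 1, 2, 3 and 4 it was at 8.40, 8.49, 8.31 and 8.20, which lies above all BD arrays (0.33 ± 0.06; adjusted p = 0.0161) and below all NBD arrays (-0.25 ± 0.07; adjusted p = 0.0477). Slc5a11, a sodium-coupled carrier of myo-inositol, changed by -0.28 in BD against NBD (adjusted p = 0.0448) and by 0.28 in BD_VNS against BD (adjusted p = 0.0338). With 1 array left out in turn, Slc5a11 kept its fall in 3 of 11 fits and its rise in 6 of 11. Slc2a9 kept both in 11 of 11, and its lower level in BD_VNS than in NBD in 3 of 11. Without BD 4 and BD 6 the adjusted p of Slc5a11 were 0.124 and 0.11, and those of Slc2a9 were 0.0112 for its fall, 0.102 for its rise and 0.0701 between BD_VNS and NBD. With the enterocyte mean subtracted, Slc2a9 passed in BD against NBD (-0.35, adjusted p = 0.00275) and neither passed in BD_VNS against BD (adjusted p = 0.0763 and 0.209). With that mean as a covariate Slc2a9 did not pass in BD against NBD either (-0.36, adjusted p = 0.101). Between BD_VNS and NBD its change was -0.11 (adjusted p = 0.424) with the 3′ minus 5′ difference as a covariate. The fall of Slc5a11 did not pass with any of these 3 adjustments (adjusted p = 0.479, 0.727 and 0.0702). The 11 carriers had a median change of -0.004 between BD and NBD, of 0.03 between BD_VNS and BD and of 0.02 between BD_VNS and NBD.

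**Figure D4:**
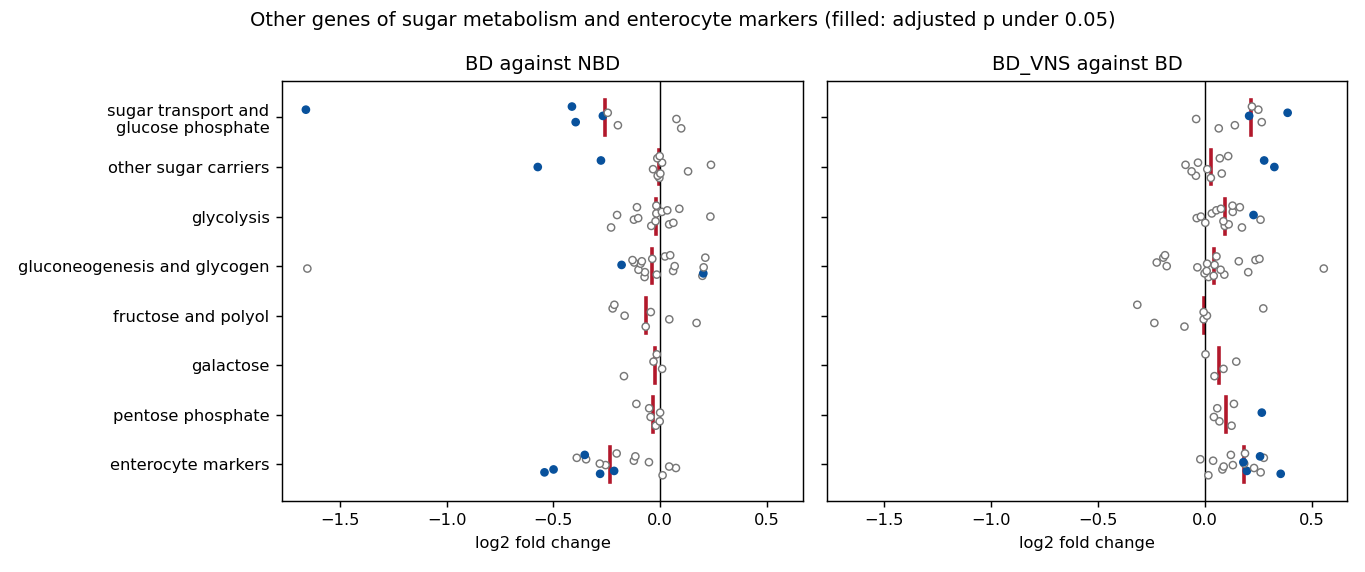
Log2 fold change (horizontal axis) of single genes (points) in the 8 sugar transport and glucose phosphate genes, 6 other lists of sugar metabolism and the enterocyte markers, for BD against NBD and BD_VNS against BD. Filled points passed an adjusted p under 0.05 and red lines are list medians. The medians of the 8 genes and of the enterocyte markers lie at -0.26 and -0.24 in BD against NBD, and those of the other lists between -0.07 and -0.004.

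Few measured enzymes of sugar breakdown passed. Of 24 glycolysis genes listed 15 were measured, and Hk1, Aldoa, Gapdh, Pgam1, Eno1, Pkm and Ldha were not among them. Over all 11427 probe sets, 2149 had an unadjusted limma p under 0.05 in BD against NBD. That count was 2578 in BD_VNS against BD, where 4 of the 15 glycolysis genes had it, and 2631 in BD_VNS against NBD. Of 15 glycolysis genes 0 passed in BD against NBD (3 at an unadjusted limma p under 0.05; median -0.02). In BD_VNS against BD 1 rose, the phosphofructokinase subunit Pfkl (0.23 ± 0.06, SE; limma adjusted p = 0.0349; list median 0.09), and in BD_VNS against NBD 0 passed (4 at an unadjusted p under 0.05; median 0.06). Of 6 pentose phosphate genes 0 passed in BD against NBD (0 at an unadjusted p under 0.05; median -0.03). Rpia, ribose 5-phosphate isomerase, rose in BD_VNS against BD (0.27 ± 0.07; adjusted p = 0.0377; list median 0.10) and against NBD (0.27 ± 0.07; adjusted p = 0.0407; list median 0.05). With 1 array left out in turn, the rise against BD passed in 4 of 11 fits for Pfkl (adjusted p = 0.026 to 0.0972) and in 1 of 11 for Rpia, the one without BD_VNS 2 (0.00155 to 0.107). The rise of Rpia against NBD passed in 2 of 11, those without BD_VNS 2 or BD 4. Without both BD 4 and BD 6 the rises against BD did not pass (adjusted p = 0.165 for Pfkl and 0.154 for Rpia), nor did that of Rpia against NBD (0.0613). With the 3′ minus 5′ difference as a covariate Rpia changed by 0.17 against BD (adjusted p = 0.112) and by 0.12 against NBD (adjusted p = 0.395), and Pfkl by 0.24 against BD (adjusted p = 0.0693). With the enterocyte mean subtracted the changes against BD were 0.07 for Pfkl and 0.10 for Rpia (adjusted p = 0.427 and 0.363).

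Of 19 genes of gluconeogenesis and glycogen, 1 rose and 1 fell in BD against NBD (median -0.04). These were Gbe1, the glycogen branching enzyme (0.20 ± 0.05, SE; limma adjusted p = 0.043), and Pfkfb2, which sets the level of fructose 2,6-bisphosphate (-0.18 ± 0.04; adjusted p = 0.0256). With the enterocyte mean subtracted the change of Pfkfb2 was 0.04 (adjusted p = 0.615). In BD_VNS against BD 0 of the 19 passed, with a median of 0.04. At an unadjusted limma p under 0.05 were 8 of the 19, against 2578 of all 11427 probe sets. In BD_VNS against NBD Gbe1 (0.20 ± 0.05; adjusted p = 0.035) and Fbp2, the muscle form of fructose-1,6-bisphosphatase (0.24 ± 0.07; adjusted p = 0.0439), rose, and Pfkfb4 fell (-0.35 ± 0.08; adjusted p = 0.0254), with a list median of 0.07. Without NBD 3 none of these 5 calls in either comparison was made (adjusted p = 0.12 to 0.165). The same held without NBD 1 (adjusted p = 0.0604 to 0.186). Without BD 4 and BD 6 the adjusted p in BD against NBD were 0.168 for Gbe1 and 0.15 for Pfkfb2, and that of Gbe1 in BD_VNS against NBD was 0.0554. With the 3′ minus 5′ difference as a covariate, Gbe1 (0.10, adjusted p = 0.331), Fbp2 (0.22, adjusted p = 0.202) and Pfkfb4 (-0.28, adjusted p = 0.2) did not pass in BD_VNS against NBD.

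Of 7 genes of fructose and polyol metabolism 0 passed in BD against NBD (median -0.07) or in BD_VNS against BD (median -0.01). At an unadjusted limma p under 0.05 were 2 and 3 of the 7, against 2149 and 2578 of all 11427 probe sets. In BD_VNS against NBD 2631 of all probe sets were. In BD_VNS against NBD Txnip, an arrestin-like protein that restrains glucose uptake and that glucose induces, fell. Its levels were 11.18, 11.17, 11.23 and 11.42 in BD_VNS 1, 2, 3 and 4, against 11.63, 11.83 and 11.89 in NBD 1, 3 and 4 (-0.53 ± 0.11, SE; limma adjusted p = 0.0105; list median -0.07). All BD_VNS arrays were below all NBD arrays, and the BD arrays, at 11.41 to 11.86, overlapped both. The call was lost without NBD 4 (-0.48, adjusted p = 0.0501). Of 4 galactose genes 0 passed in any comparison (1 at an unadjusted p under 0.05 in each; medians -0.02, 0.07 and 0.04), and neither did the 1 measured disaccharidase gene.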

How the data were processed

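Total RNA from rat small intestine was hybridised to 11 Affymetrix arrays, per the labels' protocols. The authors deposited 1 table of normalized values for 11484 probe sets, each keyed to 1 Entrez gene number. Its scale was read as log2 from the deposited values, which run from about 5 to 15, since no label states it. No source used here gives the normalization software or method.

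After 57 control probe sets were left out, 11427 were fitted with limma 3.58.1 (R 4.3.3; lmFit and eBayes, 3 groups together), with Benjamini-Hochberg adjustment over all of them and a threshold of 0.05. There was no filter on low values. Of the probe sets, 11255 had a symbol in the annotation given and 11233 of the gene numbers were in the RefSeq table for GRCr8. The procedure was tested on simulated data with changes of 0.5 and 1 log2 units only. The called changes of the 8 genes other than Slc37a2 were smaller, so the share found at their size was not tested. The 8 measured genes were all named, and, in other lists, up to 4 genes per comparison with the smallest p among those that passed, and the 3 probe sets most like each gene that passed, 1 of which is not reported here. The genes, the lists and the leaving out of BD 4 and BD 6 were chosen with earlier results of these data known. Alternatives were other normalizations, filters, fits, covariates and left-out arrays, 23 in all. Promoters are RefSeq's.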

Additional observations from a re-analysis of the deposited data

How the results depend on the processing

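Of the 7 calls among the 8 genes, none changed direction in any of 23 alternatives: 137 of the 161 refits kept the call and 24 lost it. The number of the 8 genes called in BD_VNS against BD was 2, and it was 4 with array weights, 1 with the enterocyte mean subtracted, and 0 with that mean as a covariate, with the replicate number as a block or without BD 4 and BD 6. In BD against NBD it was 4, and 2 with the enterocyte covariate. With 1 array left out it ran from 3 to 4 in BD against NBD, from 1 to 4 in BD_VNS against BD and from 1 to 2 in BD_VNS against NBD.

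Over all probe sets, the 655 calls in BD against NBD became 1642 with array weights, 363 with the replicate block, 6503 (6355 higher) with the enterocyte mean subtracted, 107 with it as a covariate and 293 without BD 4 and BD 6. The 635 in BD_VNS against BD became 343 with only these groups fitted, 1628 with array weights, 402 with the block, 415 with the 3′ minus 5′ control signal as a covariate, 1852 (1850 lower) with the enterocyte mean subtracted and 152 without BD 4 and BD 6. The 965 in BD_VNS against NBD became 2599 with array weights, 363 with that covariate and 574 with the enterocyte mean subtracted. With 1 array left out they ran from 317 to 882, 279 to 1108 and 494 to 1638 in these comparisons. Subtraction moves every probe set by the same amount per array, which sets the splits given; the other causes were not tested.

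Same-numbered arrays did not deviate together (correlations of -0.245 to 0.071), so the numbers were not taken as pairs. With the replicate block Khk in BD against NBD had an adjusted p of 0.101, and in BD_VNS against BD Slc2a2 had 0.0959 and Slc2a5 0.122.

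Signs turned only for changes that had not passed, other than Pfkfb2 in BD against NBD (0.0402 with the enterocyte mean subtracted). For BD_VNS against BD, Fbp1 was -0.0145 with array weights, -0.0966 with the enterocyte mean subtracted and -0.0148 with it as a covariate, G6pc1 was -0.0186 with the block and -0.0212 with that subtraction, and Slc2a1 was 0.0265 with the 3′ minus 5′ covariate. For BD_VNS against NBD, Slc2a1 was -0.0217 with array weights and -0.0226 with the block, and G6pc1 was 0.139 with the 3′ minus 5′ covariate and 0.0018 with the subtraction. For BD against NBD, G6pc1 was 0.023 with the subtraction, and with the enterocyte covariate Slc2a5 was 0.0898 and Tkfc 0.00756. With 1 array left out, Slc2a1 ran from -0.0226 to 0.076 in BD_VNS against NBD and from -0.0984 to 0.000244 in BD_VNS against BD, and G6pc1 from -0.168 to 0.0681 in BD_VNS against NBD.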

Other observations

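Pck1, the cytosolic phosphoenolpyruvate carboxykinase that commits carbon to glucose production, varied more between arrays than any of the 8 genes. It and Tkfc, below, were chosen after their values were seen, and neither passed. Pck1 had log2 levels of 9.51, 9.10, 10.93 and 9.20 in BD 1, 3, 4 and 6, against 11.42, 11.24 and 11.35 in NBD 1, 3 and 4. All BD arrays were below all NBD arrays, with BD 4 apart from the other 3 (-1.65 ± 0.50, SE; limma adjusted p = 0.0861). Without BD 4 the adjusted p was 0.0214, and without BD_VNS 3 it was 0.0324. In BD_VNS 1, 2, 3 and 4 it was at 11.20, 10.43, 8.86 and 10.48. These levels span the range of BD and lie below all NBD arrays. The changes were 0.56 ± 0.47 against BD (SE; limma adjusted p = 0.523) and -1.09 ± 0.50 against NBD (adjusted p = 0.221).

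Tkfc, the triokinase that acts on a later product of fructose breakdown than Khk, had changes of the same sign as Khk in BD against NBD and in BD_VNS against BD. Its change was -0.22 ± 0.08 in BD against NBD (SE, limma adjusted p = 0.157) and 0.27 ± 0.08 in BD_VNS against BD (adjusted p = 0.0603). With the enterocyte mean subtracted these were -0.002 (adjusted p = 0.985) and 0.11 (adjusted p = 0.23). In BD_VNS against NBD the signs differed, with Tkfc at 0.05 (adjusted p = 0.794) and Khk at -0.13.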
